A study of Mus musculus with 8 samples.

Results

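The epidermal differentiation complex is a cluster of genes for proteins of the outer skin layers, on chromosome 3 in the mouse. Its genes were chosen by name, with older clone names translated through the RefSeq accessions of the probes, and 48 of 27813 genes and unnamed probes on the array belonged to it. They comprised 12 late cornified envelope genes of the Lce1 group, 2 of the Lce3 group, 13 small proline-rich genes (Sprr), 13 S100a genes, 5 fused-type S100 genes and 3 other envelope genes (Lor, Ivl and Crct1). The choice used no measured value, although it was made with earlier results of these data known.

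The mice were SKH-1 males, which are hairless, and RNA came from their whole dorsal skin at an age of 19 weeks. All 8 mice had received UVB on the back over 10 weeks, and topical treatment began 1 week after that. In the vehicle group (n = 4) the back received 30% ethanol, and in the enalapril group (n = 4) it received 1% enalapril maleate in the same 30% ethanol, in both groups on 5 occasions a week for 2 weeks. Enalapril maleate is an inhibitor of angiotensin-converting enzyme, and the comparison asks how skin after UVB differed with and without it. Skin without UVB or without ethanol was not analysed here. Each RNA was hybridised to 1 single-colour (Cy3) Agilent array, so the number of arrays limits the precision, and the labels call the replicates biological.

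Keratinocytes express the complex as they leave the basal layer and turn into the dead, flattened cells of the cornified layer. Involucrin, loricrin, the Sprr proteins and the Lce proteins are joined by transglutaminases into the cornified envelope, while the fused-type S100 proteins, filaggrin among them, bundle keratin filaments or add to the envelope. The S100a proteins are small calcium-binding proteins, several of which are made at high levels in inflamed or regenerating epidermis.

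All values are log2 intensities relative to the 75th percentile of their own array, and every difference is enalapril minus vehicle on that log2 scale. One probe stood for each gene, that with the highest mean signal, and levels of different probes are not set against each other. Of the 48 genes, 46 were tested, because the scanner software marked them as well above background on 4 or more of the 8 arrays. S100a5 was well above background on 3 arrays and Sprr3, a small proline-rich gene, on 0, and neither was tested. No probe of the complex was saturated. The deposited flags put 67.1 to 72.7% of all spots well above background. All vehicle arrays lay on 1 slide with 1 scan day and all enalapril arrays on another slide with another scan day, so in every result the treatment cannot be told apart from slide and scan. In whole skin, fewer cells of a type and less RNA per cell cannot be told apart either. Of the 7 basal and 7 spinous or granular keratinocyte markers, every one was tested and 0 passed with limma in either direction (0 also at an unadjusted p under 0.05), with median differences of 0.01 and 0.04.

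Within the complex, 8 genes fell with enalapril and 0 rose (limma, adjusted p under 0.05 over 19123 genes tested). Over all genes tested 9.85% fell and 4.34% rose. Of the 8, 6 were Lce1 genes and 2 were S100a genes, S100a13 and S100a3. No Lce3, Sprr, fused-type S100 or other envelope gene passed in either direction, although 1 fused-type S100 gene and 1 other envelope gene had an unadjusted p under 0.05. So low an unadjusted p was common, in 6133 of all 19123 genes tested, 1979 of them higher. Across the 46 genes the median difference was -0.20, with 14 values above 0 and 32 below, beside a median of -0.08 over all genes tested. The complex was bright on these arrays, with 37 of its 46 tested genes among the brightest quintile of all genes. In that quintile 17.5% of all genes fell, 0.732% rose and the median was -0.19. Of the 37 members there 7 fell, a share near that background, so the count over the whole complex does not set it apart from genes of like brightness. The 7 included 6 of the 11 Lce1 genes in the quintile.

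**Figure D1:**
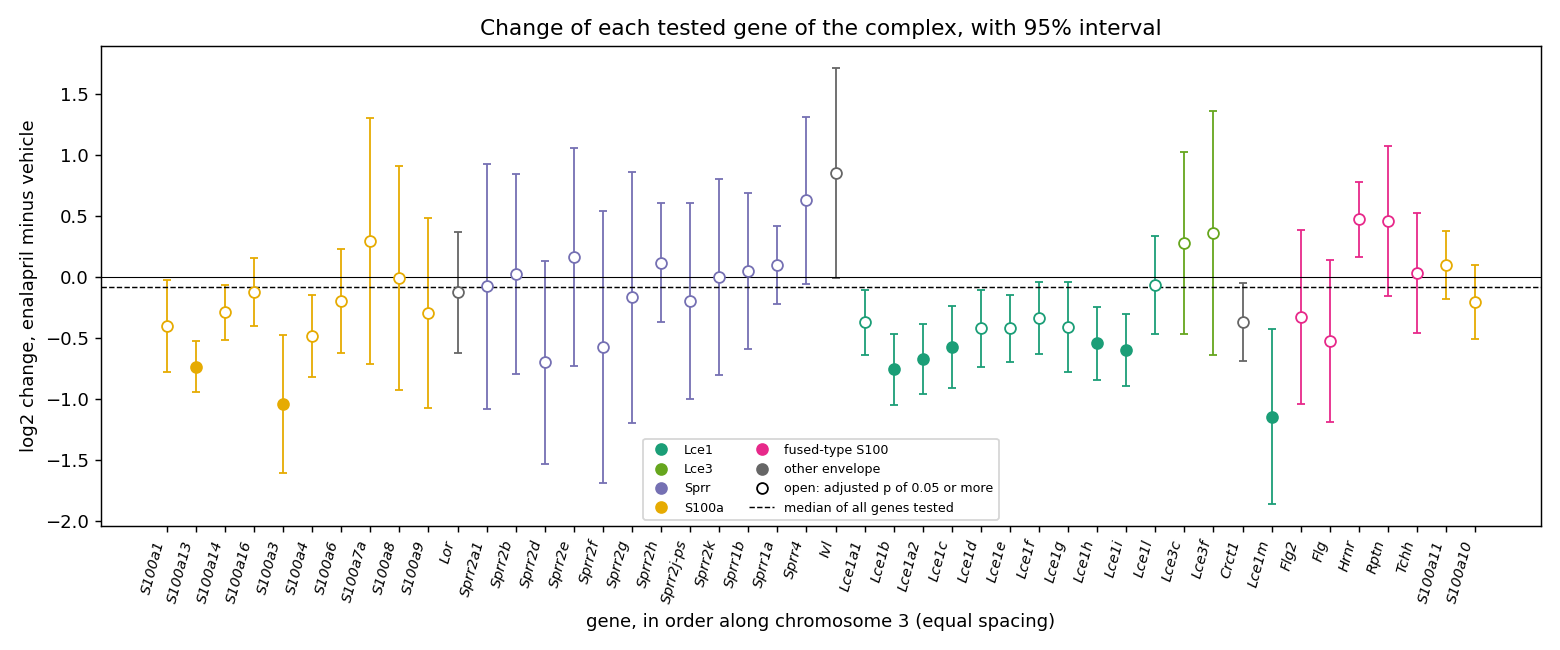
Difference between enalapril and vehicle (y axis, log2, enalapril minus vehicle, limma estimate with 95% interval) for each of the 46 tested genes, placed in their order along chromosome 3 with equal spacing (x axis). Filled points passed at an adjusted p under 0.05, and the dashed line is the median of all genes tested (-0.08). The 12 Lce1 genes all lie at or below -0.07, while Ivl beside them lies at 0.85 with an interval from -0.01 to 1.71.

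The Lce1 group held 6 of the 8 genes that fell. Lce1 proteins join the envelope late in cornification. All 12 Lce1 genes had a difference below 0, of which 6 passed: Lce1a2, Lce1b, Lce1c, Lce1h, Lce1i and Lce1m fell by 1.46 to 2.22-fold. The median over the 12 was -0.48, with a range from -1.15 for Lce1m to -0.07 for Lce1l. Over all genes tested 11431 of 19123 differences were below 0. The brightest quintile, with 11 of the 12 Lce1 genes, had a median of -0.19. Of the 12 Lce1 genes, 11 had an unadjusted p under 0.05 in limma, all of them lower. Over all genes tested 6133 had so low a p in either direction, 1979 of them higher. In 8 of the 12 every enalapril array lay below every vehicle array, beside 15.4% of all genes tested. That share was not counted for the brightest quintile, in which 17.5% of genes fell against 9.85% of all. Lce1 genes are related copies, the probe sequences were not used here, and one probe may detect the transcripts of several genes, which was not tested. The 12 values are therefore not taken as independent of each other.

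Lce1b, the gene with the smallest adjusted p of the group, measured 6.80, 7.04, 6.73 and 7.17 on vehicle arrays 1 to 4 and 6.20, 6.14, 6.34 and 6.01 on enalapril arrays 1 to 4. The lowest vehicle array stood well above the highest enalapril array. The difference was -0.76 ± 0.13 (SE; limma adjusted p = 0.0135). A dimmer probe for Lce1b gave a difference of -0.22 with an adjusted p of 0.422 in a limma fit of all probes, so the fall of this gene rests on 1 of its 2 probes. Lce1a2, its neighbour on the chromosome, measured 5.44, 5.55, 5.41 and 5.92 with vehicle and 4.82, 4.91, 4.91 and 4.98 with enalapril. The enalapril arrays were tightly grouped (SD 0.07, n = 4) below all vehicle arrays (SD 0.23, n = 4), and the difference was -0.67 ± 0.13 (SE; limma adjusted p = 0.0165).

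Lce1m, which lies apart from the other Lce1 genes on the far side of Lce3f and Crct1, had the largest difference. It measured 4.24, 5.34, 4.49 and 5.73 with vehicle and 4.08, 3.56, 3.77 and 3.79 with enalapril. The vehicle arrays ranged widely, and the lowest of them was close to the highest enalapril array without crossing it. The difference was -1.15 with a 95% interval from -1.86 to -0.43 (limma adjusted p = 0.0444).

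Lce1i measured 6.89, 7.01, 6.53 and 7.04 with vehicle and 6.23, 6.17, 6.35 and 6.31 with enalapril. Lce1c measured 6.36, 6.56, 6.06 and 6.61 with vehicle and 5.87, 5.82, 6.02 and 5.59 with enalapril. Lce1h measured 4.31, 4.57, 4.46 and 4.82 with vehicle and 3.93, 3.85, 4.18 and 4.02 with enalapril. In all 3 genes the groups did not overlap, and in Lce1c vehicle array 3 and enalapril array 3 nearly met. Their differences were -0.60, -0.57 and -0.55, with limma adjusted p-values of 0.0231, 0.0374 and 0.0312.

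The other 6 Lce1 genes did not pass. Lce1e was nearest to the threshold at -0.42 (limma adjusted p = 0.0507), with Lce1a1 at -0.37 (0.0672) and Lce1d at -0.42 (0.0758). Lce1f lay at -0.34 and Lce1g at -0.41. A second, much dimmer Lce1g probe also gave -0.41. Lce1l, the only Lce1 gene outside the brightest quintile of genes, had a 95% interval from -0.47 to 0.33. These 6 genes are named so that the whole group is accounted for, after their values were seen.

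**Figure D2:**
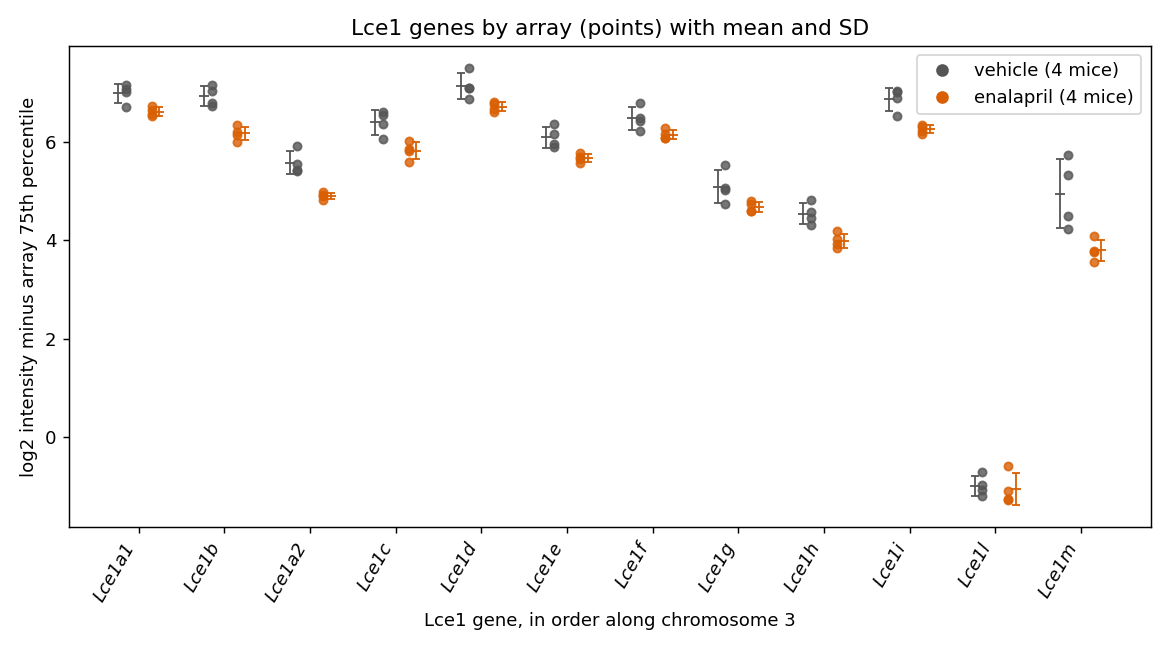
Relative level of the 12 Lce1 genes on each array (y axis, log2 intensity minus the array's 75th percentile; x axis, genes in chromosome order), with points for single mice and bars for mean ± SD of 4 vehicle (grey) and 4 enalapril (orange) arrays. Enalapril points lie below all vehicle points in 8 genes, and only Lce1l has a smaller spread with vehicle (SD 0.21) than with enalapril (SD 0.32).

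The Lce1 genes also varied less between mice in the enalapril group. The median SD over the 12 genes was 0.23 with vehicle and 0.10 with enalapril, and it was smaller with enalapril in 11 of the 12 genes (91.7%). Over all genes tested the SD was smaller with enalapril in 41.1%, and in the brightest quintile in 47.2%. It was also smaller with enalapril in 2 of 2 Lce3, 5 of 5 fused-type S100 and 3 of 3 other envelope genes, in 7 of 12 S100a genes and in 5 of 12 Sprr genes, so a smaller spread was not particular to Lce1. The 12 genes followed the same mice. Vehicle array 4 was the highest vehicle array in 11 of the 12 and vehicle array 3 the lowest in 9. As medians over the 12 genes, the deviations from the vehicle mean were -0.09, 0.05, -0.26 and 0.27 on vehicle arrays 1 to 4 and -0.53, -0.54, -0.34 and -0.50 on the enalapril arrays.

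The count of falling Lce1 genes depended on single arrays. It was 2 without vehicle array 2, vehicle array 4, enalapril array 1, enalapril array 2 or enalapril array 3, and 4, 7 and 5 without vehicle array 1, vehicle array 3 and enalapril array 4. Lce1a2 and Lce1b passed in all 8 of these fits, while Lce1c, Lce1h, Lce1i and Lce1m passed in 2 of 8 each. Over the whole complex the count of 8 became 3 without vehicle array 4, enalapril array 1 or enalapril array 3, 4 without vehicle array 2 or enalapril array 2, 5 without vehicle array 1, and 9 without vehicle array 3 or enalapril array 4. Calls over all genes moved in the same fits, so the loss was not particular to Lce1: 2712 genes passed with all arrays and 846 to 1086 in the 5 fits that left 2 Lce1 genes, in which 3.09 to 3.45% of all genes fell. Without vehicle array 1, vehicle array 3 and enalapril array 4, 895, 2003 and 4950 genes passed.

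The count of falling Lce1 genes also depended on how the arrays were scaled. It stayed at 6 with median scaling and in the uncentred matrix, and was 9 with normexp after the background of 4 spots was repaired. Quantile normalization, which gives every array the same distribution of intensities, left Lce1a2 (-0.47, limma adjusted p = 0.0295) and Lce1b (-0.58, adjusted p = 0.0478) past the threshold. With it 5.83% of all genes tested and 5.7% of the brightest quintile fell, and 3 of the 37 members there. Over the whole complex 4 genes fell and 1, Hrnr, rose under quantile normalization, and 41.8% of all genes called were higher, against 30.6% with the 75th percentile and 5.19% with the uncentred deposited matrix. Scaling to the E1A spike-in controls left 0 of the 46 genes and 384 of all 19123 genes past the threshold. At an unadjusted p under 0.05 in limma there were 10 of the 46 and 3732 of all genes. The median over all genes was -0.45 in the uncentred matrix and 0.14 with normexp background correction, against -0.08 with the 75th percentile. In all 7 scalings the difference of all 12 Lce1 genes was below 0, and that of 11 or 12 was below the median of all genes. The 75th percentile, median and E1A scalings and the uncentred matrix differ only by a constant per array. Among these the count of 11 below that median was therefore the same by construction.

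**Figure D3:**
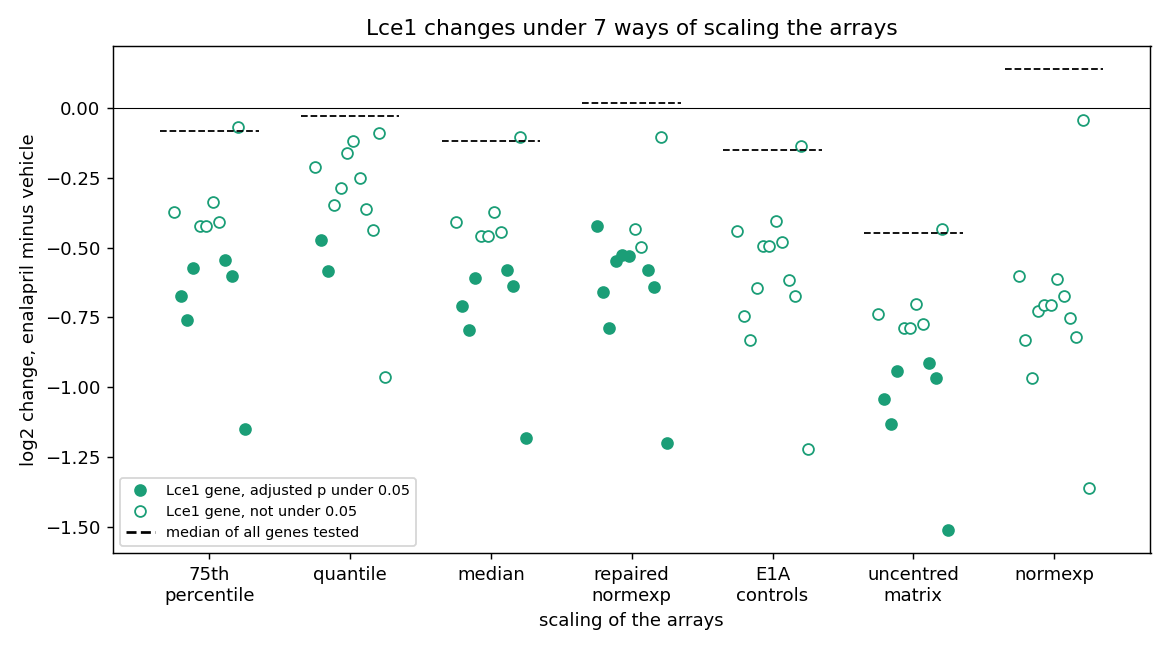
Difference of each of the 12 Lce1 genes (y axis, log2, enalapril minus vehicle) under 7 ways of scaling the arrays (x axis), filled where the limma adjusted p was under 0.05, with the median of all genes tested as a dashed line. Every point lies below 0. Filled points number 6 with the 75th percentile, median scaling or the uncentred matrix and 9 with repaired normexp. They number 2 with quantile normalization and 0 with E1A controls or normexp.

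Promoter sequences are shown for 3 Lce1 genes that fell and for Sprr2d of the Sprr group, in which no gene passed, to show the letters that the promoters of each group share. They come from RefSeq (GRCm38.p6) and run from 250 bases before the annotated start to 50 after it, 5′ to 3′ on the gene's strand. A promoter was listed for 42 of the 48 genes. Lce1b lies at chr3:92656877-92657176, minus strand, Lce1i at chr3:92778850-92779149, minus strand, Lce1m at chr3:93019012-93019311, minus strand, and Sprr2d at chr3:92338890-92339189, plus strand. Capitals mark ACTGTCTCAC and ATAAAAG where the Lce1 genes hold them, and TGANTCA in Sprr2d. The Lce1b promoter does not hold ATAAAAG.
Lce1b: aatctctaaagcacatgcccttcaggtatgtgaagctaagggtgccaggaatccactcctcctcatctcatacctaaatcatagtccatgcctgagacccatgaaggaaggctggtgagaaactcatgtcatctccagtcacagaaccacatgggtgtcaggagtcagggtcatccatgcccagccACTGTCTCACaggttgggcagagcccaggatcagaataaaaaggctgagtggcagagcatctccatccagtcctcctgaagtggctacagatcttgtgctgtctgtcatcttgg
Lce1i: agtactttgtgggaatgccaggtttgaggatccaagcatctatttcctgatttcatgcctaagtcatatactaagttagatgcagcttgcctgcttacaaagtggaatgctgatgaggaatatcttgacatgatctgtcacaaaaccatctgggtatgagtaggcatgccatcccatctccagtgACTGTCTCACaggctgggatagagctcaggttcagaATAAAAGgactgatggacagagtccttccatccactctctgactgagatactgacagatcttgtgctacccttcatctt
Lce1m: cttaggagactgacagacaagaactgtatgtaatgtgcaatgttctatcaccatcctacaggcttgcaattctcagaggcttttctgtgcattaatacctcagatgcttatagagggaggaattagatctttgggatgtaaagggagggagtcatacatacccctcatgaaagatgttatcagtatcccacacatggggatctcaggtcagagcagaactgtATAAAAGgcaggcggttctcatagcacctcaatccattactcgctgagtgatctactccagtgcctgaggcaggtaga
Sprr2d: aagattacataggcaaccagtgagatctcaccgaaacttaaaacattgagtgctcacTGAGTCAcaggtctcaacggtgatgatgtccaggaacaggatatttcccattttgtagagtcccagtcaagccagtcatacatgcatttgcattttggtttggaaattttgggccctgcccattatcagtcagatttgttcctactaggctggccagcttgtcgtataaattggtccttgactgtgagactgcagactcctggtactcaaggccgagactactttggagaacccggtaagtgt

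The motifs were picked after the sequences had been read, and each was searched on both strands. ATAAAAG, a variant of the TATA box, was present in 9 of 11 Lce1 promoters, 28 to 29 bases before the start, in 2 of 2 Lce3 promoters, in 1 of 11 Sprr and 1 of 11 S100a promoters, in 0 of 5 fused-type S100 and 0 of 2 other envelope promoters and in 5.42% of all 32851 promoters. The plain TATA letters TATAAA, which overlap with ATAAAAG where both read TATAAAAG, were present in 2 of 11 Lce1, 9 of 11 Sprr, 3 of 5 fused-type S100, 3 of 11 S100a and 2 of 2 other envelope promoters and in 13.6% of all. ACTGTCTCAC, the run of 10 bases held by the most Lce1 promoters, was present in 8 of 11, 64 to 65 bases before the start, in no other promoter of the complex listed here and in 0.14% of all promoters, and it overlaps with none of the other motifs. TGANTCA, the letters bound by AP-1 (Fos and Jun proteins), was present in 8 of 11 Sprr promoters, 3 of 5 fused-type S100 promoters, 2 of 2 other envelope promoters, 1 of 11 S100a promoters, 0 of 11 Lce1 promoters, 0 of 2 Lce3 promoters and 7.81% of all. The E-box CACGTG was present in 2 of 11 S100a promoters, in no other promoter of the complex listed here and in 7.15% of all. A match is a description of letters in this window and neither a bound site nor a cause. Lce1l and Lce1m differed most from the other Lce1 promoters, with 51 to 56.2% identical bases over 19 pairs, against 63.3 to 86% over the 36 pairs of the other 9. The printed Lce1m promoter holds ATAAAAG and not the shared run of 10 bases. Of the Lce1 genes that fell, Lce1a2, Lce1b, Lce1h and Lce1i hold the run, and Lce1c and Lce1m do not. Of those that did not pass, Lce1a1, Lce1d, Lce1e and Lce1g hold it and Lce1l does not. No promoter was listed for Lce1f. The part of the run in the differences was not tested.

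Lce3 genes, which human studies link to psoriasis and barrier repair, showed no difference that passed. Lce3f measured 3.39, 2.22, 3.57 and 1.44 with vehicle and 2.66, 3.27, 3.07 and 3.05 with enalapril. Lce3c measured 3.26, 2.53, 3.53 and 1.87 with vehicle and between 2.85 and 3.30 with enalapril. In both genes vehicle array 3 was highest and vehicle array 4 lowest, and all enalapril arrays sat between these extremes. The differences were 0.36 (95% interval -0.64 to 1.36) and 0.28 (-0.47 to 1.02), and without vehicle array 4 their median was -0.04 in place of 0.32, as it was -0.05 in the uncentred matrix. Vehicle array 4 was thus the lowest vehicle array for both Lce3 genes and the highest for 11 of 12 Lce1 genes. Lce3a and Lce3b were not analysed here.

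The Sprr genes encode proline-rich bridges of the envelope and are known to be induced by stress and UV. None of the 12 tested genes passed (limma, 0 also at an unadjusted p under 0.05, lowest adjusted p 0.189), and the median difference was 0.01, with 6 values above 0 and 6 below. Sprr2d measured 5.04, 4.07, 5.64 and 4.79 with vehicle and 3.44, 4.65, 4.58 and 4.05 with enalapril. The groups overlapped, and the difference of -0.70 had an interval from -1.53 to 0.13 (limma adjusted p = 0.22). In the uncentred matrix, where the median of all genes was -0.45, the Sprr2d difference passed at -1.07 (adjusted p = 0.0209). Sprr4 lay at 0.63 (interval -0.06 to 1.31), with enalapril arrays 1 and 4 high at 2.87 and 3.05 and the other two at 2.00 and 1.72, within the vehicle range up to 2.08.

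For the remaining named Sprr genes the intervals were -0.22 to 0.41 for Sprr1a, -0.60 to 0.68 for Sprr1b and -0.37 to 0.60 for Sprr2h. The intervals were wider for most of the Sprr2 genes, and over the 12 genes they reached from -1.69 to 1.31. The Sprr genes ranked the vehicle mice alike: vehicle array 3 was the highest vehicle array in 10 of the 12 Sprr genes and vehicle array 2 the lowest in 10. The median SD was 0.48 with vehicle and 0.66 with enalapril. Sprr2a1 has near-identical copies, so its value is uncertain, and its 2 probes gave -0.08 and 0.30. As with Lce1, one probe may detect the transcripts of several Sprr2 genes, which was not tested. The 12 Sprr values are therefore not taken as independent of each other.

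**Figure D4:**
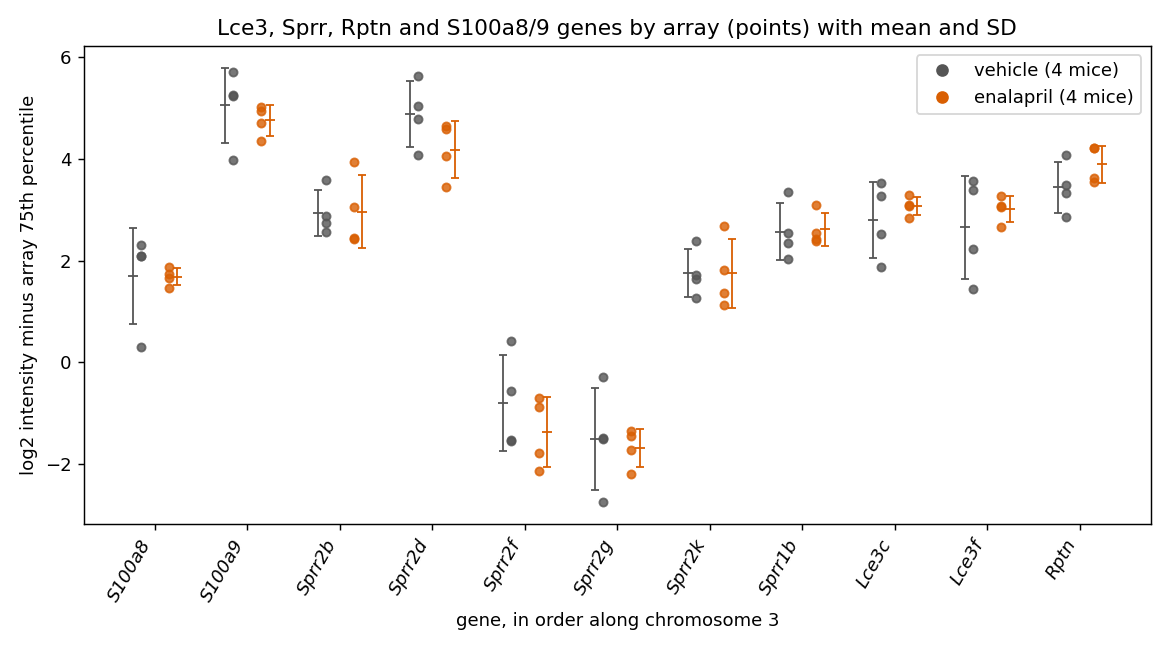
Relative level on each array (y axis, log2 intensity minus the array's 75th percentile) of 11 genes of the complex (x axis, in chromosome order). Points are single mice and bars are mean ± SD of 4 arrays a group. The genes were picked from those with wide spread in the vehicle group, and others of like spread, such as Lce1m and S100a7a, are not shown here. In Lce3f the vehicle arrays run from 1.44 to 3.57 and the enalapril arrays from 2.66 to 3.27, and none of the 11 genes passed the test.

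Among the fused-type S100 genes, hornerin (Hrnr), a filaggrin-like protein, came nearest to the threshold, with higher values in the enalapril group. Its levels were 4.28, 4.43, 3.93 and 4.51 with vehicle and 4.71, 4.77, 4.84 and 4.69 with enalapril. All enalapril arrays lay above all vehicle arrays, in 1 of the 46 genes beside 6.6% of all genes tested. The difference of 0.47 ± 0.13 (SE) missed the threshold (limma adjusted p = 0.0505), and was 0.27 (adjusted p = 0.302) for its other probe. It passed with quantile normalization (0.64, adjusted p = 0.0214), but not with the E1A controls (0.40, adjusted p = 0.346), with normexp (0.30, adjusted p = 0.475) or in the uncentred matrix (0.10, adjusted p = 0.811). Of the 8 fits without 1 array it passed in 1, that without enalapril array 4 (adjusted p = 0.0433).

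Filaggrin (Flg), the source of keratin-bundling monomers and of natural moisturising factor, measured 5.81, 5.92, 6.38 and 6.91 with vehicle and 5.82, 5.93, 6.09 and 5.07 with enalapril. The groups overlapped, with vehicle array 4 high and enalapril array 4 low, and the difference was -0.53 (interval -1.19 to 0.14). Filaggrin-2 (Flg2) lay at -0.33 (interval -1.05 to 0.38), repetin (Rptn) at 0.46 (-0.15 to 1.07) and trichohyalin (Tchh), a protein of the hair's inner root sheath, at 0.03 (-0.46 to 0.52). Their adjusted p-values in limma were 0.498, 0.275 and 0.938. The group's median was 0.03, and it was -0.16 without vehicle array 4, -0.20 with normexp and -0.33 in the uncentred matrix. Cornulin (Crnn) was not analysed here.

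Involucrin (Ivl), an early scaffold of the envelope, measured 0.66, 1.44, -0.07 and 0.35 with vehicle and 2.08, 1.00, 1.88 and 0.83 with enalapril. The 2 high enalapril arrays stood above every vehicle array and the other two within the vehicle range. The difference was 0.85 (interval -0.01 to 1.71, limma adjusted p = 0.16), next to the Lce1 genes on the chromosome. Loricrin (Lor), the main protein of the mouse envelope, measured 8.12, 7.50, 7.59 and 8.51 with vehicle and 7.64, 7.85, 7.91 and 7.81 with enalapril. The enalapril arrays lay inside the vehicle range, and the difference was -0.13 (interval -0.63 to 0.37). Crct1, a small cysteine-rich gene among the late envelope genes, lay at -0.37 (interval -0.69 to -0.05, limma adjusted p = 0.11).

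Of the 12 S100a genes tested, S100a13 and S100a3 fell, and the median difference was -0.25. With 9.85% of all genes and 17.5% of the brightest quintile lower, 2 of 12 is a count near the background. S100a13, linked to the export of growth factors without a signal peptide, measured 3.95, 3.99, 3.74 and 3.93 with vehicle and 3.11, 3.21, 3.16 and 3.19 with enalapril. Both groups were tight and far apart, and the fall of 1.67-fold had the smallest adjusted p of the complex (limma, 0.00792). S100a13 passed in all 8 fits that left out 1 array and with quantile normalization (-0.56, adjusted p = 0.0128), but not with the E1A controls (-0.81, adjusted p = 0.0595) or normexp (-0.88, adjusted p = 0.276).

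S100a3, a protein of the hair cuticle, measured 1.88, 1.21, 1.88 and 1.30 with vehicle and 0.07, 1.02, 0.26 and 0.75 with enalapril. The groups did not overlap, although enalapril array 2 came near vehicle array 2. The fall was 2.06-fold (limma adjusted p = 0.0303) and passed in 3 of the 8 fits without 1 array, those without vehicle array 2, enalapril array 2 or enalapril array 4. Of 13 hair follicle markers tested, 1, Krt32, fell (-0.77, limma adjusted p = 0.0378), their median difference was -0.47, and their summed level was 54.9 to 115 with vehicle and 51.3 to 81 with enalapril in multiples of the 75th percentile. The part of the follicle in the S100a3 difference was not tested.

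S100a8 and S100a9 form calprotectin, made by neutrophils and by stressed keratinocytes. S100a8 measured 2.09, 2.10, 2.31 and 0.30 with vehicle and 1.66, 1.87, 1.74 and 1.47 with enalapril. S100a9 measured 5.24, 5.26, 5.71 and 3.99 with vehicle and 4.71, 5.02, 4.94 and 4.34 with enalapril. In both, vehicle array 4 was lowest of all, and the other vehicle arrays lay above every enalapril array. The differences were -0.01 (interval -0.93 to 0.91) and -0.30 (interval -1.07 to 0.48). Without vehicle array 4 the log2 change of S100a8 was -0.48 (limma adjusted p = 0.0657) and the log2 change of S100a9 was -0.65 (adjusted p = 0.0872). Of 9 neutrophil markers on the array 7 were tested, 0 passed with limma (2 higher at an unadjusted p under 0.05), Elane was not well above background on any array, and the summed level was 6.26 to 9.05 with vehicle and 8.78 to 12.6 with enalapril.

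S100a7a, the relative of human psoriasin, lay at 0.29 (interval -0.72 to 1.30). The other 7 S100a genes tested did not pass, with a lowest limma adjusted p of 0.0614 for S100a4, a gene of fibroblasts and migrating cells, at -0.49. S100a1, which is made in muscle, lay at -0.40 (adjusted p = 0.132). Both are named after their values were seen. Of 11 skeletal muscle markers 6 fell, with a median difference of -0.66 and a summed level of 845 to 1170 with vehicle and 679 to 783 with enalapril. Of 8 adipocyte markers 3 fell, with sums of 293 to 381 and 190 to 298. Over all genes tested 9.85% fell, and 17.5% in the brightest quintile. Of 7 fibroblast markers 0 passed with limma, with a median difference of 0.09. Muscle and fat lie in and under the dermis, and their part in the S100a differences was not tested. In quantile-normalized data the S100a median was -0.06.

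The genes that work with the complex were read from lists. Of 32 tested envelope partners (transglutaminases, desmosomal proteins, proteases and lipid enzymes) 0 passed with limma, 1 higher and 4 lower had an unadjusted p under 0.05, and the median was -0.07. Krtdap, a secreted protein of differentiating keratinocytes, lay at -0.38 (limma adjusted p = 0.0613), the lipoxygenase Aloxe3 at -0.38 (0.0688) and the calmodulin-like gene Calml3 at -0.35 (0.105). Of 27 tested regulators 0 passed, 3 had an unadjusted p under 0.05, all higher, and the median was 0.12. They were Trp63, the master factor of stratified epithelium, at 0.35 (limma adjusted p = 0.0505), the aryl hydrocarbon receptor Ahr at 0.46 (0.0703) and Cebpa at 0.38 (0.0966). Over all 19123 genes tested, 1979 were higher at an unadjusted p under 0.05, so 3 of 27 is a count near the background. Of 16 tested genes of hyperproliferative keratinocytes 1 fell, the beta-defensin Defb14 (-0.75, limma adjusted p = 0.0108), 0 rose, and Krt6b lay at 0.94 (adjusted p = 0.185).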

How the data were processed

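Dorsal skin RNA of 4 vehicle and 4 enalapril mice was measured on single-colour arrays. Per the file headers, the authors' scanner files came from Agilent Feature Extraction 9.1.3.1 (9.1 in the submitters' processing notes) and hold the deposited processed intensity and raw mean and background intensity of 45018 spots, with 0 or 1 flags as other values. The deposited series matrix holds log2 values, equal to the log2 processed intensity within 5e-09 and uncentred (column medians 6.39 to 7.3). Precision is limited by the number of arrays.

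The processed intensity was put on a log2 scale, less each array's 75th percentile. Control spots and flagged outliers were left out, spots of a probe were averaged, and the brightest probe stood for a gene. Probes were named through RefSeq by accession (22912), symbol (6657) or synonym (3094), 1485 kept their name and 6979 had none. Genes well above background on at least 4 of 8 arrays were tested with limma 3.58.1 (R 4.3.3; lmFit and eBayes, two-sided, Benjamini-Hochberg over all genes, threshold 0.05). The script was tested on simulated data. Members and lists were chosen with earlier results of these data known. Named were members past the threshold, the 2 largest differences of each group, a stated list of envelope genes and up to 3 genes with the smallest p of each other list.

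Alternatives were normexp (offset 50), quantile and median scaling, the matrix, other filters on dim probes, the mean of a gene's probes, every probe on its own, a replicate block, a variance trend and leaving out each array. Others were added after seeing the data: normexp with the background of 4 spots repaired, and centring on 320 E1A control spots. Slide as a block could not be fitted, since each slide held 1 group. Vehicle and enalapril arrays of the same number deviated together with r of -0.159 to 0.144, so numbers were not taken as pairs.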

Additional observations from a re-analysis of the deposited data

Results flagged for a closer look

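Among 92 sets of 4 arrays (46 genes in each group), 2 had an array far from the rest, its gap to the nearest array, divided by the range of the set, exceeding Dixon's 95% critical value. Chance flags about 1 in 20 such sets. S100a8 stood out in the vehicle group, where vehicle array 4 read 0.30 and the nearest array 2.09, a ratio of 0.891. Sprr2a1 stood out in the enalapril group, where enalapril array 2 read 4.54 and the nearest array 6.31, a ratio of 0.86.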

How the results depend on the processing

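All 6 Lce1 calls and both S100a calls kept their direction under every alternative run. The filters on dim probes, the replicate block and the variance trend cannot change a difference, so only the other alternatives could have turned it. The 8 falling genes of the complex became 0 with normexp (where 0 of 19123 genes passed with limma, 2644 at an unadjusted p under 0.05) and 0 with E1A centring, 4 with quantile scaling, 4 without a filter on dim probes, 12 with repaired normexp and 3 to 9 when 1 array was left out. The 6 Lce1 genes became 0 with normexp and E1A centring, 2 with quantile scaling, 3 without the filter, 9 with repaired normexp and 2 to 7 without 1 array. With the replicate number as a block, although the numbers showed no pairing, 2 genes of the complex, 1 Lce1 gene and 611 of all genes passed. The count of rising genes was 1 in place of 0 with repaired normexp, quantile scaling, detection on all 8 arrays and the variance trend, and 0 to 1 without 1 array. Without 1 array, 11 of 12 Lce1 differences stayed below 0 at least. The Lce1 median was -0.72 with normexp and -0.85 in the matrix, and -0.55 to -0.39 without 1 array. The fused-type median was -0.20 with normexp, -0.33 in the matrix, 0.31 with mean probes and -0.16 to 0.15 without 1 array. The median log2 change of S100a genes was -0.48 with normexp, -0.061 with quantile scaling, -0.62 in the matrix and -0.35 to -0.18 without 1 array. The other envelope median was -0.50 in the matrix and -0.27 to 0.06 without 1 array, the Lce3 median -0.04 to 0.59 and the Sprr median -0.26 to 0.20. The cause of these shifts was not tested. S100a5 and Sprr3 were limited by signal near background.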

Other observations

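Marker lists of other cells in the skin gave these counts with limma at an adjusted p under 0.05, next to the keratinocyte, hair, neutrophil, muscle and fat lists above. Of 7 fibroblast markers 0 passed (0 at an unadjusted p under 0.05), with a median difference of 0.09. Of 9 macrophage and dendritic cell markers 0 passed (1 higher and 1 lower at an unadjusted p under 0.05), with a median of -0.10. Of 6 endothelial, 5 melanocyte and 5 T cell markers tested 0 passed in each list (1 lower in each at an unadjusted p under 0.05), with medians of 0.10, -0.34 and -0.19. Of 6 Schwann cell markers 1 fell, with a median of -0.10.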
